A study of Mus musculus with 8 samples.

Results

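The genes described here are 10 transcription factors of the pluripotency network, measured in the fetal mouse ovary at E14.5: *Pou5f1* (OCT4), *Sox2*, *Nanog*, *Esrrb*, *Sall4*, *Utf1*, *Klf2*, *Klf4*, *Tfcp2l1* and *Zfp42* (REX1). They were chosen by symbol from the 25239 gene symbols counted, and all 10 were present and passed the filter on low counts. Each RNA-Seq library came from the whole ovaries of 2 embryos, with 4 libraries from control embryos (*Bmpr1a* fl/fl) and 4 from *Bmpr1a*-cKO embryos (*Bmpr1a* fl/fl; Oct4-Cre Cre/WT). Embryos of both genotypes shared the floxed *Bmpr1a* alleles and a largely C57BL/6 background, and had mothers injected with 4-hydroxytamoxifen (1 mg) and progesterone (0.5 mg), first at 9.5 dpc, again at 10.5 dpc and last at 11.5 dpc. The Cre is tamoxifen-inducible and driven by Oct4 sequences, so the germ cells are the targeted cells, and only the *Bmpr1a*-cKO embryos carried the Cre allele. The 8 embryos of each genotype came from 6 litters in all, and the litter of each library is not given in the sources used here. The question addressed is whether loss of a BMP type I receptor from germ cells alters the shutdown of the pluripotency programme in the ovary.

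OCT4 and SOX2 bind DNA side by side on a composite site and, with NANOG, form the core of the transcription factor network that keeps embryonic stem cells pluripotent. ESRRB, KLF2, KLF4 and TFCP2L1 reinforce that core in the naive state, SALL4 and UTF1 act on the chromatin around it, and REX1 is a widely used marker of naive cells. Mouse germ cells express much of this network before sex determination, and female germ cells lose it as they leave mitosis and enter meiosis.

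The libraries held 8562961 to 15365052 counts, and the 10 factors received 38 to 1704 counts each per library, so none was near the floor of 3 counts. *Bmpr1a* itself averaged 218 ± 15.3 CPM in controls, against 194.6 ± 10.5 CPM with Cre (SD, n = 4 each), a log2 fold change of -0.16 that was not called (FDR = 0.0692 by edgeR). This count covers the whole gene in whole ovaries, in which somatic cells keep the receptor. *Ddx4*, the germ cell RNA helicase also known as *Mvh*, was detected in all 8 libraries at 106 to 179 CPM, and the globin genes *Hba-a1*, *Hba-a2*, *Hbb-bs* and *Hbb-bt* were at 0 counts in all of them. In whole ovaries, fewer cells of a type and less RNA per cell cannot be told apart.

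Of the 10 genes, 9 had a promoter entry in RefSeq (GRCm38.p6), in 12 windows reaching from 250 bases before a transcription start to 50 after it, and *Sall4* had none. The upstream stretches of 4 genes are shown because they hold a match to the OCT-SOX composite, the octamer or the KLF motif. These genes moved by different amounts. *Nanog* and *Zfp42* were among those that rose most, *Pou5f1* is the reference for the ratios given later, and *Tfcp2l1* was not called. Each is written 5′ to 3′ on the strand of the gene, and capitals mark matches on either strand to the OCT-SOX composite (the POU part TTGCAT and the SOX part ACAA, 1 base apart), the octamer ATGCAAAT or the KLF motif GGGNGTGG.
Nanog, chr6:122707239-122707488 (+): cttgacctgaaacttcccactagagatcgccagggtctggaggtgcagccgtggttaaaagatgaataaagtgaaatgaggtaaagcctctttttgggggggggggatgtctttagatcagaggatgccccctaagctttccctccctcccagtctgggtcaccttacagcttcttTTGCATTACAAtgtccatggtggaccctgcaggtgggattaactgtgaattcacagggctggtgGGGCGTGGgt
Zfp42, chr8:43307010-43307259 (-): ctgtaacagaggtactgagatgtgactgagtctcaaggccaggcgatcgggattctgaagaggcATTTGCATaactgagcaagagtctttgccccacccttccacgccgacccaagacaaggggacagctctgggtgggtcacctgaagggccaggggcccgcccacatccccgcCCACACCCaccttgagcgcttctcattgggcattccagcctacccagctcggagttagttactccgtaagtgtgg
Pou5f1, chr17:35505782-35506031 (+): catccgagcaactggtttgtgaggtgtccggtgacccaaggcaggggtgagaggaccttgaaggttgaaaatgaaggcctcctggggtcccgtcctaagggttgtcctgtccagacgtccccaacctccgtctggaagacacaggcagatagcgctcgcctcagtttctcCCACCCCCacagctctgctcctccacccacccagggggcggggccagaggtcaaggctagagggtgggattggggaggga
Tfcp2l1, chr1:118627695-118627944 (+): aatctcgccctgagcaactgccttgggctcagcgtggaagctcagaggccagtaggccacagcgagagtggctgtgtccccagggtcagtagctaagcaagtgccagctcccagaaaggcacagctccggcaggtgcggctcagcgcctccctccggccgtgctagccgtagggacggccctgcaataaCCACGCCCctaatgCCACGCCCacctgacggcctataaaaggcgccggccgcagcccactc

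*Nanog* was the one member with the OCT-SOX composite, which lay in each of its 2 windows. In the window shown it began 74 bases before the start site, overlapped by a match to the SOX core CATTGT at 67 bases. Counted from the start site of the other window it began 150 bases upstream. The composite was present in 0.149% of all 32851 windows of the mouse table. *Zfp42* was the one with an octamer, beginning 186 bases upstream, which 1.74% of all windows held. The KLF motif was found in 4 of the 9 members (*Pou5f1*, in 1 of its 2 windows, *Nanog*, *Tfcp2l1* and *Zfp42*) and in 17.6% of all windows. A member was counted if any of its windows matched, whereas the shares over all are of single windows. The ESRRB motif TCAAGGTCA was in none of the members' windows and in 0.423% of all windows. The GC-rich SMAD element GGCGCC, a sequence bound by effectors of BMP signalling, occurred in *Tfcp2l1* and in 1 of the 2 *Esrrb* windows, against 11.9% of all windows. These matches describe letters in short windows and do not show binding.

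In *Bmpr1a*-cKO ovaries 7 of the 10 factors were called higher, 0 were called lower and 3 were not called, at an absolute log2 fold change above 0.5 and an FDR below 0.05 (edgeR quasi-likelihood F test, two-sided, adjusted over all genes tested). Of all 14249 genes tested, 10.2% were called, 6.11% higher and 4.06% lower. For 6 of the 10, every *Bmpr1a*-cKO library lay above every control library, as it did for 16.1% of all genes tested. The log2 fold changes of the 10 ran from 0.11 to 1.60, with a median of 0.80 against -0.004 over all genes tested. Since the choice of factors covers one network, these counts describe the network and are not independent observations.

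**Figure D1:**
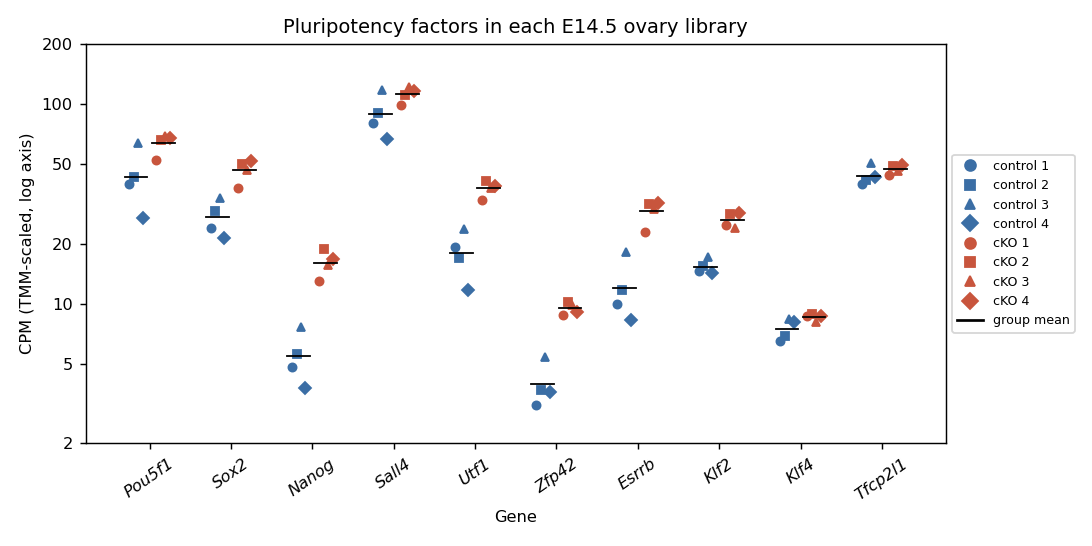
CPM (TMM-scaled, log axis) of each factor in the 4 control (blue) and 4 *Bmpr1a*-cKO libraries (red), with marker shapes for the library number and black lines for group means. *Nanog*, *Sox2*, *Utf1*, *Zfp42*, *Esrrb* and *Klf2* separate fully, *Nanog* from 3.79 to 7.68 CPM in control against 13.0 to 18.9 CPM in *Bmpr1a*-cKO libraries, while the other 4 overlap.

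Among the core factors, *Nanog* (chr6:122707489-122714633, plus strand, mm10) rose most. It was at 4.85, 5.58, 7.68 and 3.79 CPM in control libraries 1 to 4 and at 13.0, 18.9, 15.7 and 16.7 CPM in *Bmpr1a*-cKO libraries 1 to 4. All 4 *Bmpr1a*-cKO libraries lay above all 4 controls, the closest being control library 3 and *Bmpr1a*-cKO library 1. The log2 fold change was 1.60 ± 0.18 (SE), a 3.02-fold rise (FDR = 9.78e-06 by edgeR).

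*Sox2* (chr3:34650405-34652461, plus strand), the partner of OCT4 on composite sites, rose 1.74-fold. Its control libraries held 24.0, 29.3, 34.0 and 21.5 CPM and its *Bmpr1a*-cKO libraries 38.0, 50.4, 46.6 and 51.9 CPM, without overlap. The log2 fold change was 0.80 ± 0.13 (FDR = 0.000246 by edgeR). The whole of this single-exon gene lies inside the noncoding gene *Sox2ot* on the same strand, with 0 exon bases shared. *Sox2ot* had only 7 to 25 counts per library. It was called higher by 0.93 on the log2 scale (FDR = 0.0326), and that call was lost on leaving out control library 1, 2 or 4 or *Bmpr1a*-cKO library 2, 3 or 4, with an FDR of up to 0.111.

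*Pou5f1* (chr17:35506018-35510772, plus strand), which encodes OCT4, was called higher by a smaller and less certain amount. Control libraries 1 to 4 held 39.8, 43.1, 63.7 and 26.8 CPM and *Bmpr1a*-cKO libraries 52.7, 65.9, 68.9 and 67.6 CPM. Control library 3 lay above *Bmpr1a*-cKO library 1, so the groups overlapped. The log2 fold change was 0.58 ± 0.18, or 1.49-fold (FDR = 0.0235 by edgeR). The call was lost without control library 1 (FDR = 0.0637), without control library 4 (FDR = 0.0635, log2 fold change 0.38), without *Bmpr1a*-cKO library 2 (FDR = 0.0608), 3 (FDR = 0.0662) or 4 (FDR = 0.0589), and in DESeq2 (FDR = 0.116). An antisense gene, *Gm19553*, shares 317 exon bases with *Pou5f1* and has no row of its own in the counts, and the Cre allele that the *Bmpr1a*-cKO embryos alone carry contains Oct4 sequences. The part of either in the *Pou5f1* counts was not tested.

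*Utf1* (chr7:139943789-139945112, plus strand), a chromatin-bound factor expressed in pluripotent and germ cells, more than doubled. It went from 19.2, 17.0, 23.7 and 11.7 CPM in control to 33.2, 41.0, 38.1 and 39.0 CPM in *Bmpr1a*-cKO libraries, all of the latter above all of the former. The log2 fold change was 1.10 ± 0.15, or 2.15-fold (FDR = 6.12e-05 by edgeR). *Zfp42* (chr8:43295063-43306980, minus strand), the REX1 gene, was the least abundant of the 10 by CPM in control ovaries, with 3.12, 3.72, 5.43 and 3.60 CPM. In *Bmpr1a*-cKO libraries it reached 8.82, 10.2, 9.84 and 9.08 CPM, again with no overlap. Its log2 fold change was 1.27 ± 0.16, or 2.41-fold (FDR = 3.26e-05).

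*Sall4* (chr2:168748332-168767943, minus strand), a zinc finger factor that germ cells require, had the highest CPM of the 10 and was not called. It was at 80.2, 90.5, 118 and 66.8 CPM in control and at 99.4, 111, 122 and 116 CPM in *Bmpr1a*-cKO libraries, which overlapped because of control library 3. Its log2 fold change was 0.34 ± 0.13 (FDR = 0.0536 by edgeR). Without control library 3 the value was 0.50 (FDR = 0.00149) and *Sall4* was called. It overlaps the antisense gene *Gm14261* over 526 exon bases, and that gene has no row in the counts.

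Among the naive factors, *Esrrb* (chr12:86361117-86521628, plus strand), an orphan nuclear receptor, rose by an amount close to that of *Zfp42*. Its libraries held 9.95, 11.8, 18.1 and 8.27 CPM in control and 22.9, 31.8, 29.8 and 32.0 CPM in *Bmpr1a*-cKO ovaries, without overlap. The log2 fold change was 1.31 ± 0.18, or 2.49-fold (FDR = 6.72e-05 by edgeR).

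The KLF factors of the set behaved unalike. *Klf2* (chr8:72319033-72321656, plus strand) was at 14.6, 15.4, 17.2 and 14.2 CPM in control and at 24.7, 28.0, 24.1 and 28.5 CPM in *Bmpr1a*-cKO libraries, a log2 fold change of 0.79 ± 0.09 or 1.73-fold (FDR = 1.63e-05 by edgeR). *Klf4* (chr4:55527143-55532466, minus strand) was at 6.50, 6.91, 8.43 and 8.08 CPM against 8.70, 8.85, 8.06 and 8.67 CPM, with a log2 fold change of 0.20 ± 0.12 (FDR = 0.254). *Klf2* thus separated the genotypes fully, and *Klf4* did not. Endothelial cells also express *Klf2*, and of 10 endothelial marker genes 0 were called by edgeR, limma-voom or DESeq2 (2 had an unadjusted p under 0.05, both lower). Their summed level was 329 to 382 CPM in *Bmpr1a*-cKO and 356 to 414 CPM in control ovaries. The part of endothelial cells in the *Klf2* level was not tested.

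*Tfcp2l1* (chr1:118627945-118685168, plus strand), a grainyhead-related naive factor, differed least of the 10. It was at 39.6, 41.9, 50.7 and 43.0 CPM in control and at 44.1, 48.9, 46.1 and 49.5 CPM in *Bmpr1a*-cKO libraries, with a log2 fold change of 0.11 ± 0.08 (FDR = 0.324 by edgeR). The control range enclosed 4 of 4 *Bmpr1a*-cKO libraries. A small nuclear RNA gene, *Gm23497*, lies in its exons over 130 bases on the same strand.

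**Figure D2:**
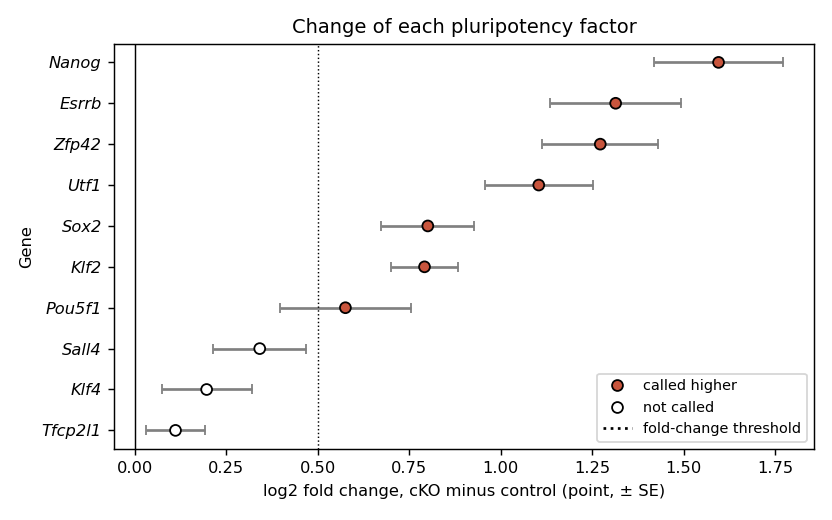
Log2 fold change (*Bmpr1a*-cKO minus control) of each factor with its SE, ordered by size, red where called higher and white where not called, with a dotted line at 0.5. The values run from 0.11 for *Tfcp2l1* to 1.60 for *Nanog*, and the 3 factors not called are the lowest.

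Many of the factors were high or low in the same libraries of a genotype, but not all. Control library 3 had the highest level of 10 of 10 factors, control library 4 the lowest of 7 and control library 1 of 3. *Bmpr1a*-cKO library 1 had the lowest of 8, while the highest were divided over *Bmpr1a*-cKO libraries 2 (4 factors), 3 (2 factors) and 4 (4 factors). *Ddx4* was likewise highest in control library 3 (168 CPM), lowest in control library 4 (120.5 CPM) and lowest among *Bmpr1a*-cKO libraries in library 1 (106 CPM). The spread was wider among controls for 10 of 10 factors. The coefficient of variation of *Pou5f1* was 35.2% in control and 11.7% in *Bmpr1a*-cKO libraries, that of *Esrrb* 35.7% and 14.6%, and that of *Sall4* 24.5% and 8.45%. *Klf2* was nearly level between the genotypes in this respect (8.83% and 8.64%), and *Ddx4* went the other way (15.4% and 21.1%). These orders and spreads are described without a test, and the share of all genes that did the same was not counted. The part of germ cell content in them was not tested.

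Since the libraries differed in their germ cell transcripts, each factor was also set against *Pou5f1* in the same library, a ratio of counts that needs no scaling between libraries. *Pou5f1* was itself called higher in *Bmpr1a*-cKO ovaries, so every ratio also holds that change. Any part of the Cre allele or of *Gm19553* in the *Pou5f1* counts would enter every ratio and was not tested. *Nanog* had 12.2, 12.9, 12.1 and 14.1 counts per 100 *Pou5f1* counts in control libraries and 24.7, 28.7, 22.8 and 24.7 in *Bmpr1a*-cKO libraries. Its coefficient of variation among controls was 30.0% as CPM and 7.36% as this ratio, so that the ratio was tight in each genotype while about doubling between them. *Esrrb* went from 25.0, 27.3, 28.4 and 30.8 to 43.4, 48.2, 43.3 and 47.3 counts, and *Utf1* from 48.1, 39.4, 37.2 and 43.8 to 62.9, 62.2, 55.3 and 57.6 counts.

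For the tests, a prior count of 2, scaled to library size, was added before the ratio was taken. On that ratio *Nanog*, *Esrrb* and *Utf1*, 3 of the 9 factors, were higher in every *Bmpr1a*-cKO library than in every control library. The same held for 1.31% of all genes set against *Pou5f1* in the same way, whose median log2 difference was -0.62. In 0 of the 9 was the ratio lower in every *Bmpr1a*-cKO library, as it was for 14.7% of all genes. The differences were 0.95 for *Nanog*, 0.70 for *Esrrb* and 0.50 for *Utf1* on the log2 scale (prior count 2), each with p = 0.0286 by an exact permutation test (two-sided), the smallest value that 70 arrangements of 4 against 4 libraries allow, and 0.0857 after Benjamini-Hochberg adjustment over the 9 ratios. *Zfp42* had 7.85, 8.62, 8.53 and 13.4 counts per 100 of *Pou5f1* in control and 16.7, 15.5, 14.3 and 13.4 in *Bmpr1a*-cKO libraries, a log2 difference of 0.64 (exact p = 0.0571, adjusted 0.0857). Here control library 4 stood with the *Bmpr1a*-cKO libraries. Without the prior count every *Bmpr1a*-cKO library lay above every control library for *Zfp42* too, but library 4 of each genotype had 13.4.

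*Sox2* and *Klf2* kept no separation from *Pou5f1*. *Sox2* had 53.4 to 80.0 counts per 100 in the controls, and its *Bmpr1a*-cKO libraries lay within that range at 67.6 to 76.7, a log2 difference of 0.18 (exact p = 0.257, adjusted 0.289), and the difference of *Klf2* was 0.16 (exact p = 0.514, adjusted 0.514). *Tfcp2l1*, *Klf4* and *Sall4* had lower means relative to *Pou5f1* in *Bmpr1a*-cKO ovaries, by log2 differences of -0.50 (exact p = 0.0571), -0.41 (exact p = 0.20) and -0.25 (exact p = 0.0571), with overlapping libraries. With 1 library left out these exact permutation tests cannot go below p = 0.0571, and the *Nanog* difference then ran from 0.88 to 1.00.

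**Figure D3:**
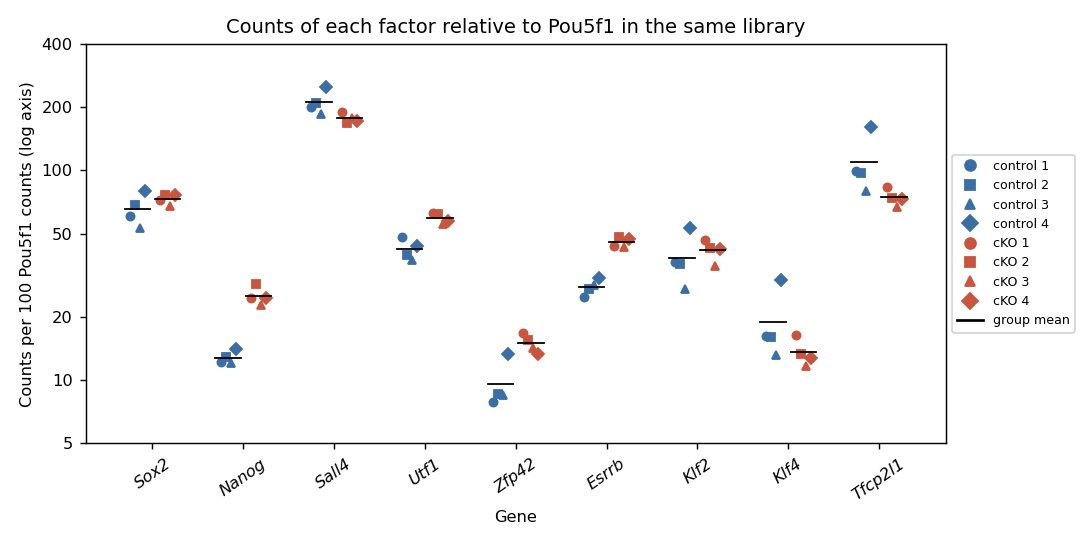
Counts of each factor per 100 *Pou5f1* counts in the same library (log axis), control in blue and *Bmpr1a*-cKO in red, with black lines for group means. *Nanog* forms a tight group in each genotype, at means of 12.8 and 25.2, and *Tfcp2l1* and *Klf4* show control library 4 above the other libraries.

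The order of the factors per exon length changed with genotype. In control ovaries *Pou5f1* (19.3 ± 6.79 CPM per kb) led, followed by *Sall4* (16.1 ± 3.94), *Utf1* (14.6 ± 4.05) and *Sox2* (13.2 ± 2.72), whose ranges overlapped from one to the next. *Klf2* (8.31 ± 0.734) and *Tfcp2l1* (4.64 ± 0.508) each stood apart from their neighbours. *Klf4* (2.45 ± 0.303), *Nanog* (2.44 ± 0.734), *Zfp42* (2.11 ± 0.537) and *Esrrb* (1.99 ± 0.709) closed the order with overlapping ranges.

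In *Bmpr1a*-cKO ovaries *Utf1* (30.8 ± 2.71 CPM per kb) came first, ahead of *Pou5f1* (28.4 ± 3.33) in 4 of 4 libraries, whereas *Pou5f1* was ahead in 4 of 4 controls. *Sox2* (22.7 ± 3.01) stood above *Sall4* (20.3 ± 1.71) in 4 of 4 *Bmpr1a*-cKO and 0 of 4 control libraries. *Nanog* (7.17 ± 1.09) passed *Tfcp2l1* (4.99 ± 0.265), being above it in 4 of 4 against 0 of 4 libraries, and *Klf4* (2.81 ± 0.114) moved to the last place below all the others. *Zfp42* (5.04 ± 0.34), *Tfcp2l1* and *Esrrb* (4.82 ± 0.705) could not be separated by their ranges. CPM per kb divides by the merged exon length of the annotation, which need not be the transcript that these cells use.

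**Figure D4:**
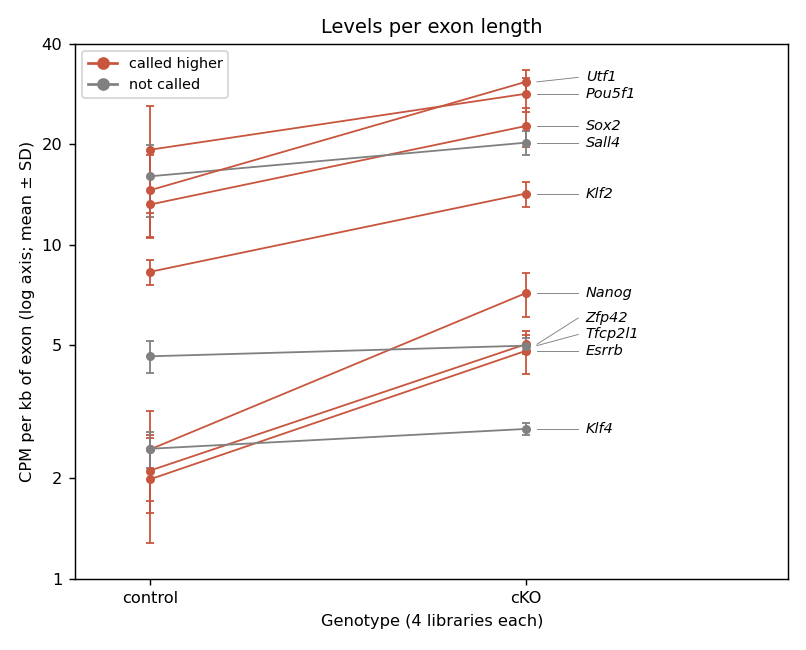
Mean level of each factor in CPM per kb of exon (log axis, bars are the SD of 4 libraries) in control and *Bmpr1a*-cKO ovaries, red where called higher and grey where not. The line of *Utf1* crosses that of *Pou5f1*, and the line of *Nanog* leaves the lowest group at 2.44 and ends at 7.17 CPM per kb.

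Germ cell content was examined with 10 germ cell marker genes, whose counts summed to 459 to 590 CPM in the control libraries and to 338 to 515 CPM in the others. Of these markers, 2 were called higher (*Dnd1* and *Nanos3*), 3 were called lower (*Mael*, *Ddx25* and *Tex101*) and 5 were not called. Over all genes tested 6.11% were called higher and 4.06% lower. *Ddx4* averaged 142 ± 21.9 CPM in controls, against 153 ± 32.3 CPM in *Bmpr1a*-cKO ovaries (log2 fold change 0.12, FDR = 0.561 by edgeR). Relative to the summed markers, 9 of 10 factors were higher in every *Bmpr1a*-cKO library than in every control library, each with an exact permutation p of 0.0286, the smallest possible, and 0.0317 after adjustment over the 10 ratios. The sum itself was lower on average in *Bmpr1a*-cKO libraries, and of all genes tested outside the markers 17.9% were higher and 2.25% lower in every *Bmpr1a*-cKO library on this ratio, with a median log2 difference of 0.18. The differences ran from 0.29 for *Tfcp2l1* to 1.74 for *Nanog* on the log2 scale, and *Klf4* overlapped (0.38, exact p = 0.0857).

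Relative to *Ddx4* alone 6 factors were higher in every *Bmpr1a*-cKO library, as were 5.08% of all genes tested, while 0 factors and 3.43% of all genes were lower in every one. The median log2 difference over all genes was -0.09. The 4 that overlapped were *Pou5f1* (log2 difference 0.52, exact p = 0.0571), *Sall4* (0.27, exact p = 0.114), *Klf4* (0.11, exact p = 0.571) and *Tfcp2l1* (0.02, exact p = 0.943). *Nanog* had 3.79, 3.69, 4.56 and 3.14 counts per 100 *Ddx4* counts in control and 12.3, 11.3, 9.86 and 9.33 in *Bmpr1a*-cKO libraries. *Tfcp2l1* had 31.0, 27.7, 30.1 and 35.7 against 41.6, 29.3, 28.9 and 27.6. Of the factors that separated fully against the summed markers, *Pou5f1*, *Sall4* and *Tfcp2l1* did not against *Ddx4*.

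Somatic markers also moved. Of 10 pregranulosa genes 10 had an FDR below 0.05 in the lower direction, 1 of them (*Foxl2*) past the fold-change threshold, and their sum was 1529 to 1638 CPM in the control libraries against 1145 to 1421 CPM. For comparison, 12.5% of all genes tested passed the FDR in that direction. Of 7 stromal genes tested 0 were called by edgeR, limma-voom or DESeq2, and 0 had an unadjusted p under 0.05. Of 7 macrophage genes 3 were called higher, and of 6 mesonephric genes 1 was called lower. Of 8 meiotic genes, which are germ cell genes and not somatic markers, 4 were called lower. Over all genes tested 6.11% were called higher and 4.06% lower. Among neural crest and neuronal markers, *Sox10* was at or under 0.0851 CPM on average in each genotype, and 1 of 4 tested, *Erbb3*, was higher. The part of these shifts in the levels of the 10 factors was not tested.

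By the smallest root mean square distance between centred log2 CPM over the 8 libraries, among 11673 genes of at least 5 CPM, the genes most like *Nanog* were *Ap3b2* (distance 0.075), *Dmrt1* (0.117) and *Itgb3* (0.131), and *Esrrb* came next (0.144). For *Sox2* they were *Trim71* (0.077), *Xlr3a* (0.0804) and *Fam169a* (0.086), with *Klf2* at rank 30. For *Pou5f1* they were *Dnd1* (0.119), *Gldc* (0.131) and *Prkcq* (0.151), with *Sall4* at rank 8 and *Sox2* at rank 12. For *Klf4* they were *St6galnac4* (0.0579), *Mkks* (0.0599) and *Nubpl* (0.0662), with *Tfcp2l1* at rank 40. *Nanog* ranked only 6631 for *Pou5f1*, since its change between genotypes was larger. The distance has the same 8 libraries for every gene and includes the difference between genotypes, so it describes only how alike the patterns of these genes were over these libraries.

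The rest of the network was described with 54 further genes, of which 48 were tested, 17 were called higher and 1 lower, with a median log2 fold change of 0.31. Over all genes tested 6.11% were called higher and 4.06% lower. Most of the network calls were in genes that mark or respond to pluripotency, of which 10 of 14 tested were higher and 0 lower (median 1.01). The 4 of these with the largest change were *Spp1*, an extracellular matrix protein (3.54 on the log2 scale, FDR = 8.43e-10 by edgeR), *Tcl1*, a co-activator of AKT (3.36, FDR = 8.43e-10), *Lefty1*, an inhibitor of Nodal signalling (2.06, FDR = 0.000819), and *Dppa4* (1.84, FDR = 2.44e-06). *Lefty1* was near the floor in controls, with 6, 5, 1 and 6 counts in libraries 1 to 4, against 12 to 22 in *Bmpr1a*-cKO libraries. *Trim28* and *Zfp281*, abundant factors of the same list, had log2 fold changes of 0.32 (FDR = 0.0029, below the fold-change threshold) and 0.02 (FDR = 0.852).

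Other naive factors were mixed, with 3 of 10 higher and 1 lower. *Prdm14*, which germ cell specification requires, rose from 3.62 ± 1.37 to 18.3 ± 2.89 CPM (log2 fold change 2.39, FDR = 8.02e-07 by edgeR), a larger value than that of any of the 10 factors. *Nr5a2* rose too (0.99, FDR = 0.000355), while *Gbx2* fell by 1.11 on the log2 scale (FDR = 0.000141). *Mycn* (0.12, FDR = 0.253) and *Tet2* (0.06, FDR = 0.627) were not called. Of 5 tested genes of the LIF-STAT3 pathway, which sustains naive stem cells in culture, 0 were called by edgeR, limma-voom or DESeq2, 1 had an unadjusted p under 0.05 (*Socs3*, a feedback inhibitor named after its value was seen, at -0.36, FDR = 0.0388), and the abundant *Jak1* and *Il6st* had log2 fold changes of -0.03 and 0.01.

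Formative and primed genes had 3 of 7 tested called higher: *Etv5*, an ETS factor downstream of FGF signalling (1.20, FDR = 2.72e-06 by edgeR), *Dnmt3b*, a de novo DNA methyltransferase (0.63, FDR = 3.67e-05), and *Sox3* (0.63, FDR = 0.0498). *Sall2* (-0.25, FDR = 0.0126) and *Tcf7l1* (-0.07, FDR = 0.58) were not called. *Otx2*, *Fgf5* and *Foxd3* did not pass the filter on low counts. Of 12 chromatin partners only *Sall1* was called (0.53, FDR = 0.0193), and the remodelling ATPases *Chd4* (-0.03) and *Smarca4* (-0.12) were not. By FDR alone, 4 of the 12 were higher and 0 lower, against 17.3% and 12.5% of all genes tested. With limma-voom 2 partners were called. Over all genes tested 10.2% were called in either direction. The call of *Sox3* was lost without control library 1, 2 or 4 or *Bmpr1a*-cKO library 2, 3 or 4 (FDR up to 0.211), and that of *Sall1* without control library 1 or 3 or *Bmpr1a*-cKO library 3 or 4 (FDR up to 0.065).

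Of the relatives of the 10 factors by gene family, 7 of 45 tested were called higher and 2 lower, with a median log2 fold change of -0.03. Over all genes tested 6.11% were called higher and 4.06% lower. Of 6 POU relatives 0 were called by edgeR, limma-voom or DESeq2 and 1 had an unadjusted p under 0.05, *Pou2f1* (OCT1) at 0.38 (FDR = 0.00115). *Pou6f1* was at -0.08 (FDR = 0.584). Among 14 SOX relatives *Sox15* rose (1.51, FDR = 0.00215) together with *Sox3*, *Sox30* fell by 1.33 on the log2 scale (FDR = 5.73e-05), and the abundant *Sox4* (-0.13, FDR = 0.114) and *Sox12* (-0.06, FDR = 0.462) were not called. Among 14 KLF relatives *Klf8* alone was called (0.66, FDR = 3.66e-06), with *Klf13* at 0.07 and *Klf11* at -0.02. By FDR alone, 4 of these 14 were higher and 1 lower, against 17.3% and 12.5% of all genes tested. *Sall3* fell by 0.95 on the log2 scale (FDR = 0.00168), *Esrra* was at -0.03 (FDR = 0.884), and *Yy1* (0.21, FDR = 0.0213) and *Yy2* (-0.06, FDR = 0.842), relatives of *Zfp42*, were not called.

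Among the relatives of *Tfcp2l1*, 3 of 5 tested were called higher. Its grainyhead cousins *Grhl3* (2.12, FDR = 5.98e-07 by edgeR), *Grhl2* (1.78, FDR = 0.00043) and *Grhl1* (0.67, FDR = 0.00769), transcription factors of epithelia, all rose although *Tfcp2l1* itself was not called. *Grhl3* went from 1.86 ± 0.273 to 8.00 ± 1.02 CPM, and *Grhl2* from 0.566 ± 0.0474 to 1.99 ± 0.533 CPM. *Grhl2* had only 6 to 8 counts per control library and 16 to 32 per *Bmpr1a*-cKO library. The closer relatives *Tfcp2* (-0.38, FDR = 0.00088) and *Ubp1* (0.15, FDR = 0.0643) stayed below the fold-change threshold.

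**Figure D5:**
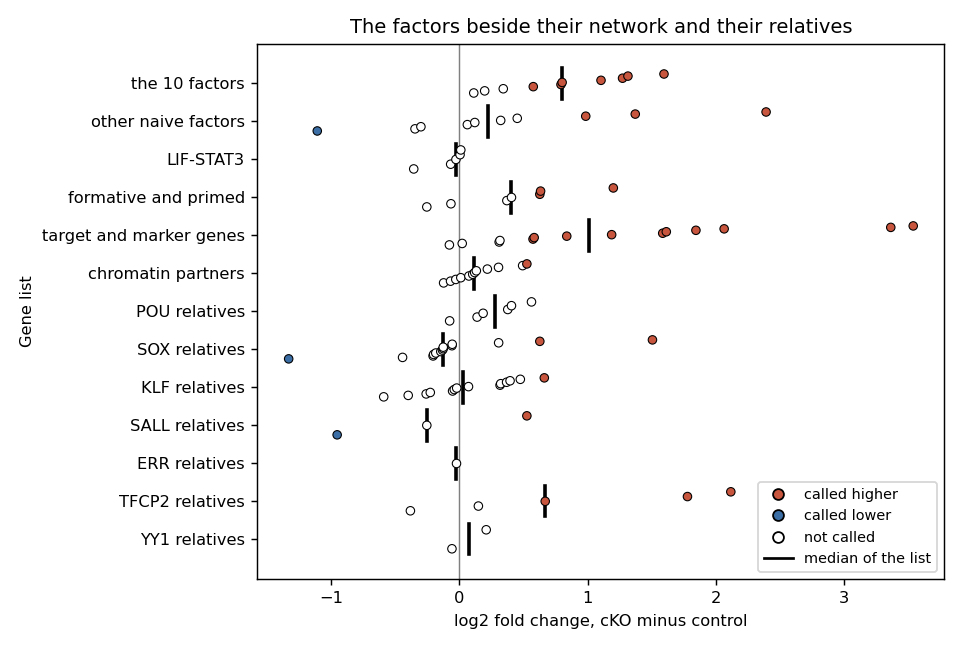
Log2 fold changes (*Bmpr1a*-cKO minus control) of the tested genes of each list, 1 point a gene, red where called higher, blue where called lower and white where not called, with a black line at the median of the list. The median of the 10 factors is 0.80 and that of pluripotency target and marker genes 1.01. Those of the SOX, KLF, SALL and ERR relatives (1 ERR gene tested) lie between -0.25 and 0.03. Those of the YY1, POU and TFCP2 relatives are 0.08, 0.28 and 0.67.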

How the data were processed

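RNA-Seq counts came from E14.5 ovary pools. The authors trimmed reads with Trimmomatic 0.39, aligned them to mm10 with STAR 2.5.2 and deposited whole-number counts per gene symbol, without normalization. The annotation and strand setting of the counting are not given in the sources used here. The authors' CPM table of the same libraries was not used.

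Counts were analysed in R 4.3.3 with edgeR 4.0.16: filterByExpr by genotype, TMM scaling and the quasi-likelihood F test over all 14249 genes tested. The SE is the absolute log2 fold change divided by the square root of F. Alternatives used limma 3.58.1, DESeq2 1.42.0, other scalings, filters and thresholds, a replicate block and each library left out. Ratios were tested by exact permutation. The fit was tested on simulated data. Gene positions are from GENCODE vM21 (24366 of 25239 symbols matched) and promoters from RefSeq.

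The factors, lists and tests were chosen with earlier results of these data known. Named genes are the 10 factors, *Bmpr1a*, *Ddx4*, overlapping genes, up to 4 called and 2 abundant uncalled genes per network or family list, and the 3 genes most alike to 4 of the factors. Some listed genes are counted in their lists but are not reported here by name. Libraries are separate embryo pools, and means are given with the SD of 4 libraries. No sample was left out.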

Additional observations from a re-analysis of the deposited data

Results flagged for a closer look

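The levels of the 10 factors and the 9 ratios to *Pou5f1* were examined for single libraries far from the rest, in 38 groups of 4, where chance marks about 1 group in 20. One value was marked. Control library 4 had 13.41 *Zfp42* counts per 100 *Pou5f1* counts, and the gap to the next control library was 0.861 of the whole range of the group. That library also had the lowest *Pou5f1* level of all 8, at 26.8 CPM, and its *Zfp42* level of 3.60 CPM lay inside the control range.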

How the results depend on the processing

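Over 20 alternatives of tool, scaling, filter, block or left-out library, the log2 fold changes of all 10 factors kept their direction, and *Sox2*, *Nanog*, *Esrrb*, *Utf1*, *Klf2* and *Zfp42* stayed called in all of them. *Sall4* was also called under germ cell marker scaling (0.54, FDR = 0.0289). The number of factors called higher was 6 to 8 with single libraries left out and 4 (*Nanog*, *Esrrb*, *Zfp42* and *Utf1*) at an absolute log2 fold change above 1, where *Sox2* (0.80), *Klf2* (0.79) and *Pou5f1* (0.58) lost their calls. Over all genes tested, higher and lower calls numbered 871 and 578, and became 2461 and 1781 by FDR alone, 321 and 180 at an absolute log2 fold change above 1, and 1487 and 272 under germ cell marker scaling, which moved the median log2 fold change of all genes to 0.175 and the share of calls that were higher from 60.1% to 84.5%. By library size alone that share was 50.8%. Network genes called higher fell from 17 to 10 at the stricter fold change, and those called lower rose from 1 to 4 by FDR alone. Family relatives called higher and lower were 13 and 6 by FDR alone and 3 and 1 at the stricter fold change, from 7 and 2. With any library left out, no ratio had an unadjusted exact permutation p below 0.05, since the smallest possible is then 0.0571.

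The replicate number, entered as a replicate block, left 7 factors called higher (log2 fold change 0.62 for *Pou5f1*, FDR = 0.00252) and 875 and 582 genes over all. With the block *Sall4* stayed below the fold-change threshold (0.36, FDR = 0.00591 by edgeR). The deviations of same-numbered libraries correlated at 0.198, 0.161, 0.108 and -0.087 across genes. Those of unlike-numbered libraries ran from -0.198 to 0.182. The same-numbered control had the highest value for *Bmpr1a*-cKO libraries 1, 2 and 3 but not 4. These values do not decide whether the numbers pair the samples, and the main fit holds genotype only. Litter, germ cell number and the position of the Cre allele were not separable from these counts, and 4 libraries a genotype limit every comparison.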
